A study of Homo sapiens with 5 samples.

Results

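The stretch of chromosome 6 band p22 from 19.5 to 22 Mb (hg19) carries the cell cycle gene E2F3 from 20.402 to 20.494 Mb, CDKAL1 from 20.535 to 21.233 Mb and SOX4 from 21.594 to 21.599 Mb. ZBTB7A peaks were taken as members when their summit lay in this block of 2.5 Mb. Of 196770 peaks in 3 deposited lists, 441 were members. They were 38 of 37782 peaks in hormone-depleted serum with vehicle (CSS), 40 of 34120 peaks in hormone-depleted serum with dihydrotestosterone (DHT), and 363 of 124868 peaks in full serum (FBS). The block had been picked because of its many FBS peaks, so those numbers and every measure set between FBS and the other lists are given here as description, without a test.

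ZBTB7A chromatin immunoprecipitation and sequencing (ChIP-seq) was done with a single antibody in the prostate cancer cell line VCaP, in which the androgen receptor is active and the TMPRSS2-ERG fusion is present. The CSS cells (2 libraries) received vehicle and the DHT cells (2 libraries) 10 nM DHT, an androgen, for 4 hours in medium with 5% CSS. The FBS cells (1 library) were grown in medium with 10% FBS, and were read as receiving no DHT from their culture condition, because the treatment text in the labels is identical for every library. Only 1 list stands for each condition, and the spread between libraries could not be measured. Depth is unknown, as read totals are not in the lists. Intervals are exact 95% intervals and cover counting error only.

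ZBTB7A, also called LRF or Pokemon, is a zinc finger protein with a BTB domain that binds DNA at promoters and enhancers and mostly recruits corepressors. E2F3 encodes an activator of the E2F family, which is held by the retinoblastoma protein and turns on S-phase genes when released. It has alternative promoters that give the E2F3a and E2F3b proteins. CDKAL1 encodes an enzyme that modifies a lysine transfer RNA, and SOX4 encodes an HMG-box transcription factor of progenitor and epithelial cells. In the RefSeq gene table (GRCh38), the protein-coding genes before E2F3 in this order are ID4, an inhibitor of helix-loop-helix factors, MBOAT1, a phospholipid acyltransferase, and the predicted gene LOC124901482. GRCh38 positions were not carried over to hg19, so no peak is assigned to those genes, and whether a peak is exonic or intronic was not determined.

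The sequences before the starts of E2F3, CDKAL1 and SOX4 are shown because peaks lay at or near each of these starts. RefSeq holds a promoter for 3 of the 3 genes, with 2 starts for E2F3, the second 1735 bases after the first. Each line gives 250 bases on the plus strand of GRCh38 that end just before the start. Capitals mark matches on either strand to 6 short words. They were the GC box (GGGCGG), bound by SP-family factors, and the CCAAT box (CCAAT), bound by NF-Y. A pair of words stood for E2F sites, the first being TTTCGCG. The other word for E2F sites was GCGGGAA. The E-box searched was CACGTG. The last word was GACCACC, part of the consensus described for ZBTB7A in vitro.
E2F3 first start, chr6:20401629-20401878: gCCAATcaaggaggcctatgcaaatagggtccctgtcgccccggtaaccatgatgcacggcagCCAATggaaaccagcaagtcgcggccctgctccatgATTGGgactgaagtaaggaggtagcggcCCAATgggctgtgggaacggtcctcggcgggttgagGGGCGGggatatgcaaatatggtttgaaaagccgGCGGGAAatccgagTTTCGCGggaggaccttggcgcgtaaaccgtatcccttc
E2F3 second start, chr6:20403364-20403613: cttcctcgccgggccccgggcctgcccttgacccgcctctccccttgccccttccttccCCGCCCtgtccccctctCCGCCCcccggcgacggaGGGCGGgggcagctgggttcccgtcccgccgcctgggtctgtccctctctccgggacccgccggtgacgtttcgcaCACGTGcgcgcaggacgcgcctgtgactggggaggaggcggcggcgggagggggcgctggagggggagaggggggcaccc
CDKAL1, chr6:20534207-20534456: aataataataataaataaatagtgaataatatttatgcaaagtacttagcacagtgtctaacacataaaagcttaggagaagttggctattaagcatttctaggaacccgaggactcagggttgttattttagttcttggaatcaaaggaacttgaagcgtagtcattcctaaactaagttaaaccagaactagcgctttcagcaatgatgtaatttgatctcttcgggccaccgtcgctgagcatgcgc
SOX4, chr6:21593501-21593750: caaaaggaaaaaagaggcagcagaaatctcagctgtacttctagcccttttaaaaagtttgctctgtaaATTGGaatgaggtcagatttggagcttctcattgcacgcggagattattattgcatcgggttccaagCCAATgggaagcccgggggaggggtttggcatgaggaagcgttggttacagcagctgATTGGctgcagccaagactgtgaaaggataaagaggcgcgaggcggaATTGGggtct

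The sequence before the first E2F3 start held 4 CCAAT boxes, 1 GC box and both E2F words, which lay 53 to 47 and 39 to 33 bases before the start. Before the second E2F3 start there were 3 GC boxes and an E-box, and 77.6% of the bases were G or C. The SOX4 sequence held 4 CCAAT boxes, and the CDKAL1 sequence, with 37.2% G or C, held none of the words. No match overlapped another. Among the 35116 sequences of this length in the RefSeq table, 42.6% held a GC box, 32.0% a CCAAT box, 1.10% the first E2F word, 5.52% the other, 6.34% the E-box and 2.42% the ZBTB7A word. The ZBTB7A word was found in none of the 4 windows, which says only that these letters are not there.

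Within 5 kb of the start of E2F3 every list had a peak with a −log10 q of at least 10, which was not so at CDKAL1 or SOX4. On hg19 its start is known here to the nearest kb (20.402 Mb), and distances are counted from there. The strongest E2F3 peak in CSS ran from 20403336 to 20404108, with its summit 1.67 kb after the start, a fold enrichment of 8.09 and a −log10 q of 21.6, rank 634 of the CSS list. Its DHT partner ran from 20403399 to 20404180, with the summit 1.99 kb after the start, a fold enrichment of 7.73 and a −log10 q of 19.7, rank 217 of the DHT list and the strongest DHT peak of the block. Fold enrichment and q-value are the authors' values for each peak. Depth is unknown, so raw values are not ordered across lists, and a peak's place is given by its rank or percentile, the position of its −log10 q among the peaks of its own list from lowest to highest. No FBS peak overlapped this site. The nearest FBS peak ended 168 bases before it.

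FBS had 3 peaks within 5 kb of the start of E2F3, and the gene as a whole held 21. The 3 ran from 20401417 to 20401742 (−log10 q of 7.34), from 20402095 to 20402393 (18.1) and from 20402461 to 20403167 (17.8), with summits at -0.436, 0.258 and 0.939 kb from the start. The last of them, at percentile 99.2 of the FBS list, overlapped peaks at percentile 73.4 of the CSS list (7.45) and 29.2 of the DHT list (4.09), with summits 0.709 and 0.686 kb after the start. Of the pair of peaks near the start in CSS and in DHT, the one farther from the start was the stronger within its list. FBS also had strong peaks deep in the gene, from 20452815 to 20453227 (15.2) and from 20453638 to 20454007 (18.3), with summits 50.999 and 51.829 kb after the start. Whether the far site is at the second RefSeq start was not determined on hg19.

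Within 5 kb of the start of CDKAL1 only FBS had peaks. The FBS peak from 20534673 to 20535039 had its summit at -0.147 kb from the start and a −log10 q of 17.1, rank 1188 of 124868. Another, from 20536155 to 20536450, lay 1.31 kb after the start (14.6, rank 1993). The nearest DHT summit was at 9.79 kb and the nearest CSS summit at -131.33 kb. At the far end of the gene the nearest summits were at -40.7 kb in CSS, 15.7 kb in DHT and 16.4 kb in FBS.

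At SOX4 no peak reached a −log10 q of 10. The 2 FBS peaks in the gene stood at higher percentiles of their list than the CSS and DHT peaks of theirs. By rank, the DHT peak (9017) came before the FBS peaks (11096 and 10429), in a shorter list. The FBS peak from 21594563 to 21596013 was wide, at 1451 bp, with a fold enrichment of 4.50 and a −log10 q of 8.19, percentile 91.1. The DHT peak from 21594651 to 21594896 (fold enrichment 6.80, −log10 q 7.24, percentile 73.5) and the CSS peak from 21595117 to 21595425 (5.41, 4.89 and percentile 46.9) lay under it but did not overlap each other. Their summits were 601 bp apart. A further FBS peak, from 21596712 to 21597148 with a −log10 q of 8.44 and at percentile 91.6, had no partner and was the nearest FBS peak to the end of the gene. At the end of E2F3 the nearest FBS summit lay 1.32 kb beyond it (8.39), and no CSS or DHT summit lay within 50 kb.

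**Figure D1:**
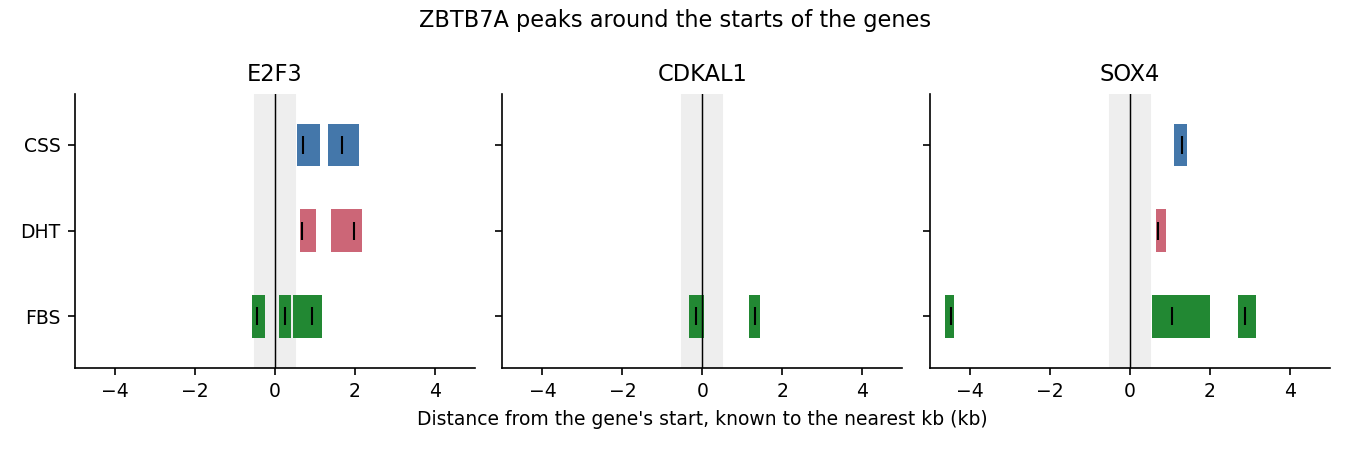
Peaks within 5 kb of the starts of E2F3, CDKAL1 and SOX4 in the CSS, DHT and FBS lists. Bars span the peaks, ticks mark summits, the line at 0 is the start as known to the nearest kb and the grey band its rounding. At E2F3 the CSS and DHT peaks with summits 1.67 and 1.99 kb after the start have no FBS bar below them, and at CDKAL1 only FBS has bars.

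Over the whole block, CSS and DHT had similar numbers of peaks, 15.2 and 16 per Mb, and FBS had 145.2 per Mb. The block held 0.101% (0.0712 to 0.138%) of the CSS list, 0.117% (0.0838 to 0.160%) of the DHT list and 0.291% (0.262 to 0.322%) of the FBS list. The ratio of the DHT share to the CSS share was 1.17 (0.729 to 1.87). This interval covers counting error in the peaks only, and whether the conditions differ was not tested. The ratio of the FBS share to the CSS share was 2.89 (2.07 to 4.15), and to the DHT share 2.48 (1.79 to 3.53). Peaks covered 15.7 kb of the block in CSS, 14.8 kb in DHT and 121 kb (120.935 kb, 4.84% of the block) in FBS. Neighbouring FBS summits were a median of 3.96 kb apart, against 11.0 kb over the whole list. The corresponding distances were 25.2 against 41.8 kb in CSS and 28.6 against 46.2 kb in DHT.

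The members next to the limits of the block show how it is bounded. The first FBS member had its summit 152 kb inside the first limit (−log10 q of 4.26) and the nearest FBS peak outside lay 278 kb before it (2.84). At the other limit the last FBS member was 14.1 kb inside (5.87) and the next FBS peak 6.04 kb outside (5.04). The last limit therefore cut through a run of FBS peaks. In CSS the peaks next to the limits were 178 kb inside and 76.3 kb outside at the first and 147 kb inside and 272 kb outside at the last, with −log10 q of 3.70, 6.66, 8.52 and 2.25. In DHT they were 265 kb inside, 76.2 kb outside, 148 kb inside and 121 kb outside, with values of 4.27, 8.04, 9.77 and 5.60.

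Beside windows of the same length, the block was among the richest in FBS peaks. In the other lists it was also above the median window, though less far up the order. Chromosomes 1 to 22 and X held 1174 windows of 2.5 Mb with a peak. The median window held 27 peaks in CSS, 25 in DHT and 99.5 in FBS. As many FBS peaks as in the block were found in 2 windows (0.170%), as many CSS peaks in 312 (26.6%) and as many DHT peaks in 214 (18.2%). Of 1145 windows with at least 10 CSS peaks, 17 had a ratio of FBS to CSS shares at or above that of the block, and the median ratio was 0.961.

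**Figure D2:**
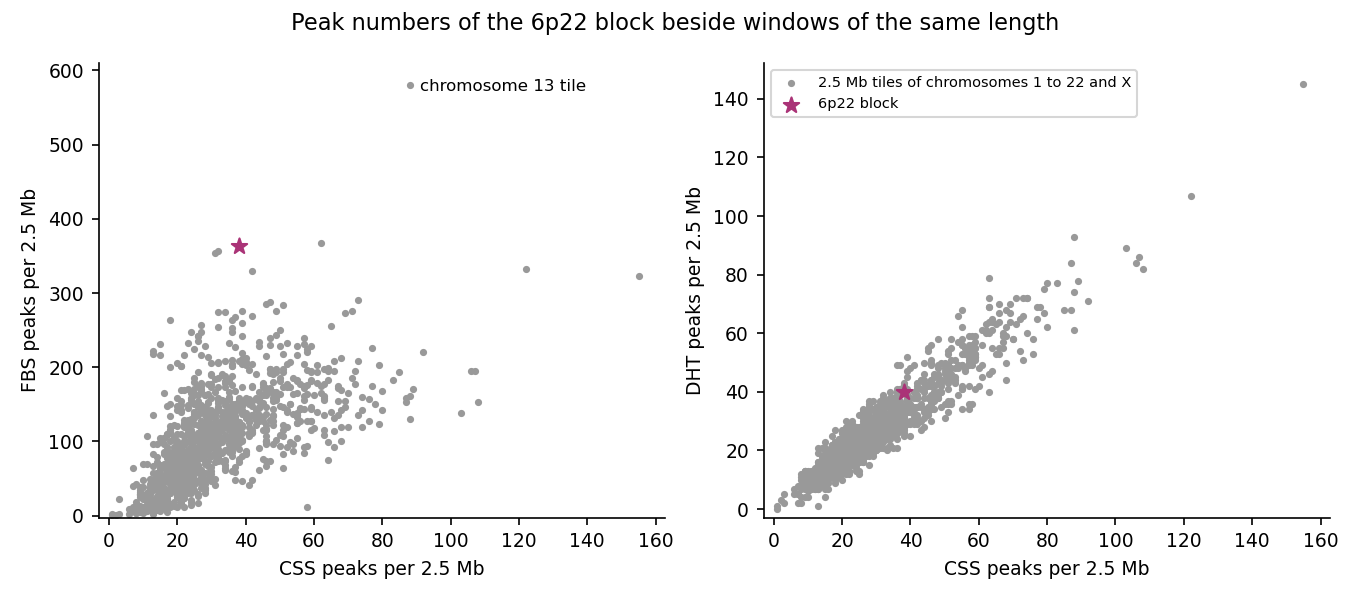
Each grey point is a 2.5 Mb window of chromosomes 1 to 22 and X, by its number of CSS peaks (horizontal) and FBS peaks (left) or DHT peaks (right), and the star is the 6p22 block. The block lies high for FBS at 363 peaks with 38 CSS peaks, and within the band of the other windows for DHT at 40.

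The FBS peaks were not spread evenly over the block. In windows of 100 kb, the FBS count was 0, 2 and 2 in the first 300 kb, rose to 17 in the window from 19800001 and reached 33 in the windows from 20500001 and from 20700001. It was 11 in the next window and 2 in the window from 21100001, within the far part of CDKAL1, and rose again to 17 in the windows from 21500001, 21700001 and 21800001. The 1 Mb before the block held 1 FBS peak and the 1 Mb after it 61. At least 10 FBS peaks were present in 16 of the 25 windows of the block, against 12.2% of 24410 windows with an FBS peak on chromosomes 1 to 22 and X. No more than 6 of those windows reached 33. In CSS and DHT no window of the block held over 5 peaks, and 8 and 6 of the 25 held none.

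**Figure D3:**
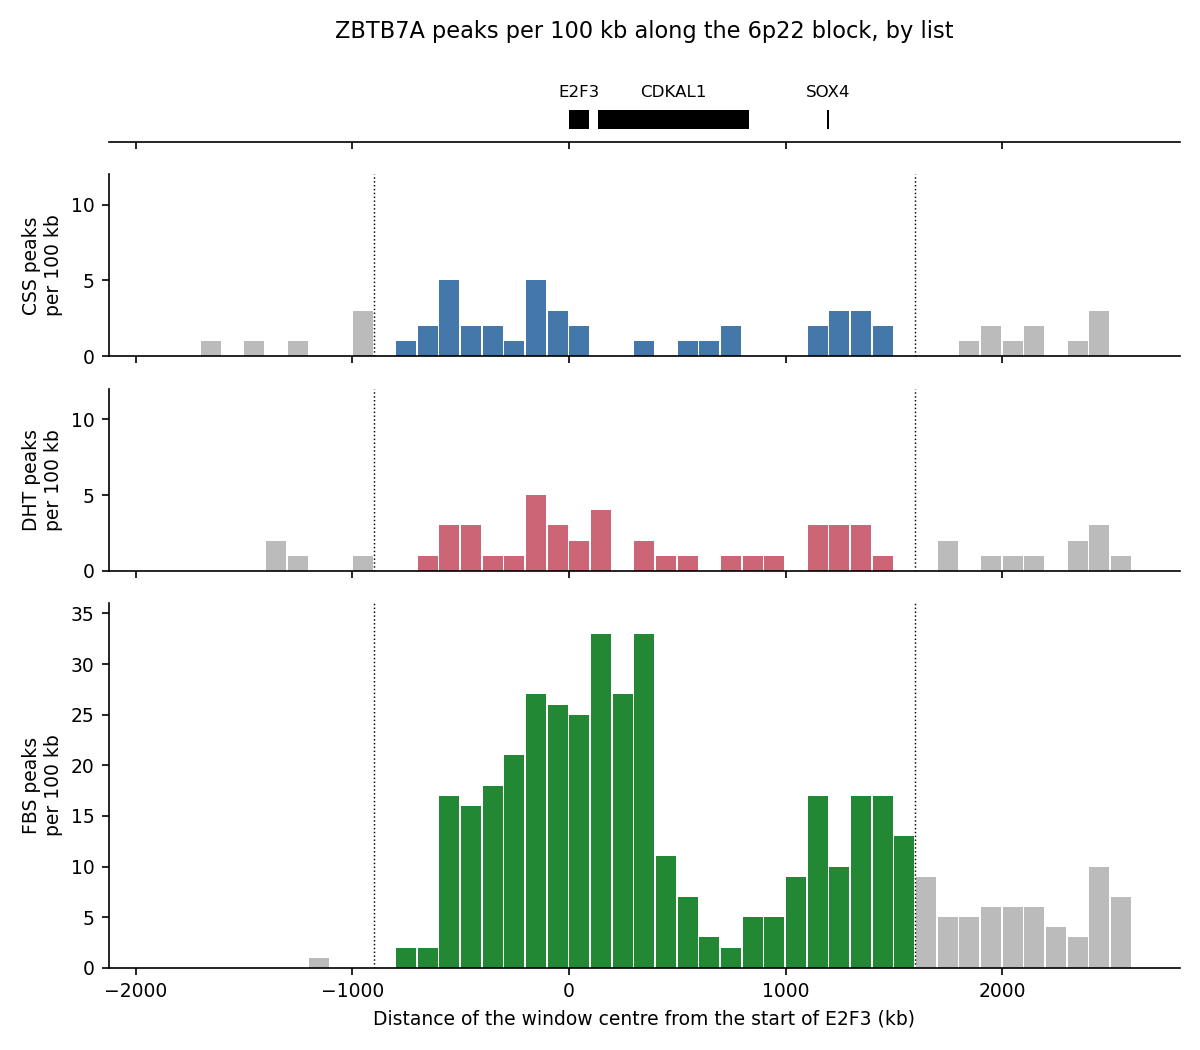
Number of CSS, DHT and FBS peaks in windows of 100 kb, against the distance of the window from the start of E2F3. Grey bars lie outside the block, dotted lines are its limits, and black bars above are the genes. The FBS bars climb to 33 across E2F3 and the first part of CDKAL1, fall to 2 in the far part of CDKAL1 and rise again to 17 around SOX4.

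This left a pair of dense FBS stretches, defined after the counts were seen as runs of windows with at least 10 FBS peaks. The first, from 19800001 to 20900000, held 254 FBS peaks (23.1 per 100 kb), 21 CSS and 25 DHT peaks. The second, from 21500001 to 22000000, held 74 FBS (14.8 per 100 kb), 10 CSS and 10 DHT peaks. The 600 kb between them held 31 FBS, 4 CSS and 4 DHT peaks. CSS and DHT peaks were thus also sparser between the stretches, at 0.667 per 100 kb in each list against 1.91 and 2.27 in the first stretch. The stretches differed in strength: the 61 FBS members whose −log10 q reached 10 all lay in the first stretch, and the median −log10 q was 6.67 in the first and 3.97 in the second.

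By gene, the FBS peaks were densest from E2F3 into the first part of CDKAL1. There were 14.4 FBS peaks per 100 kb before E2F3 (130 peaks), 22.8 in E2F3 (21), 36.6 between E2F3 and CDKAL1 (15), 14.9 in CDKAL1 (104), 9.42 between CDKAL1 and SOX4 (34) and 14.2 after SOX4 (57). SOX4 itself, 5 kb long, held 2. With CDKAL1 divided into 3 equal parts, its FBS peaks numbered 66, 33 and 5 from its start to its end. DHT had 6, 2 and 1 peaks in the same parts and CSS 1, 1 and 3. No CSS or DHT peak lay between E2F3 and CDKAL1. The part of the block before E2F3 held 21 of the 38 CSS members and 17 of the 40 DHT members.

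The strength of the FBS peaks followed this course only in part. Between E2F3 and CDKAL1, at 36.6 FBS peaks per 100 kb, their median fold enrichment was 3.69 and their median −log10 q 6.09. In CDKAL1, at 14.9 per 100 kb, these medians were 5.29 and 8.51. A −log10 q of at least 10 was reached by 61 of the 363 FBS members (16.8%), against 4.92% of the list. Of these 61, 38 lay in CDKAL1, 17 before E2F3, 4 in E2F3 and 2 between E2F3 and CDKAL1. The last of them, from 20807362 to 20807838, lay 273 kb (272.547 kb) into CDKAL1. Up to and including it, CDKAL1 held 84 FBS peaks with a median −log10 q of 9.47 and a median fold enrichment of 5.59. The remaining 425 kb of the gene held 20 FBS peaks with medians of 4.26 and 4.80. In the 100 kb that end with this peak there were 33 FBS peaks, and in the 100 kb after it 8.

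The leading FBS peaks of CDKAL1 had no partner in the other lists. The peak from 20653659 to 20654472 reached a fold enrichment of 9.95 at a −log10 q of 31.4, rank 181 of the FBS list. The peak from 20807362 to 20807838 had values of 11.5 and 22.8 (rank 463). The peak from 20618849 to 20619294 had values of 12.2 and 22.2 (rank 505), and its fold enrichment was the highest of the FBS members. The peak from 20749733 to 20750116 followed with 9.50 and 20.9 (rank 617). Among the 12 FBS-only regions with the highest −log10 q, 10 lay in CDKAL1. The others were a peak before E2F3, from 19951168 to 19951497 (20.9), and a peak in E2F3, from 20453638 to 20454007 (18.3).

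**Figure D4:**
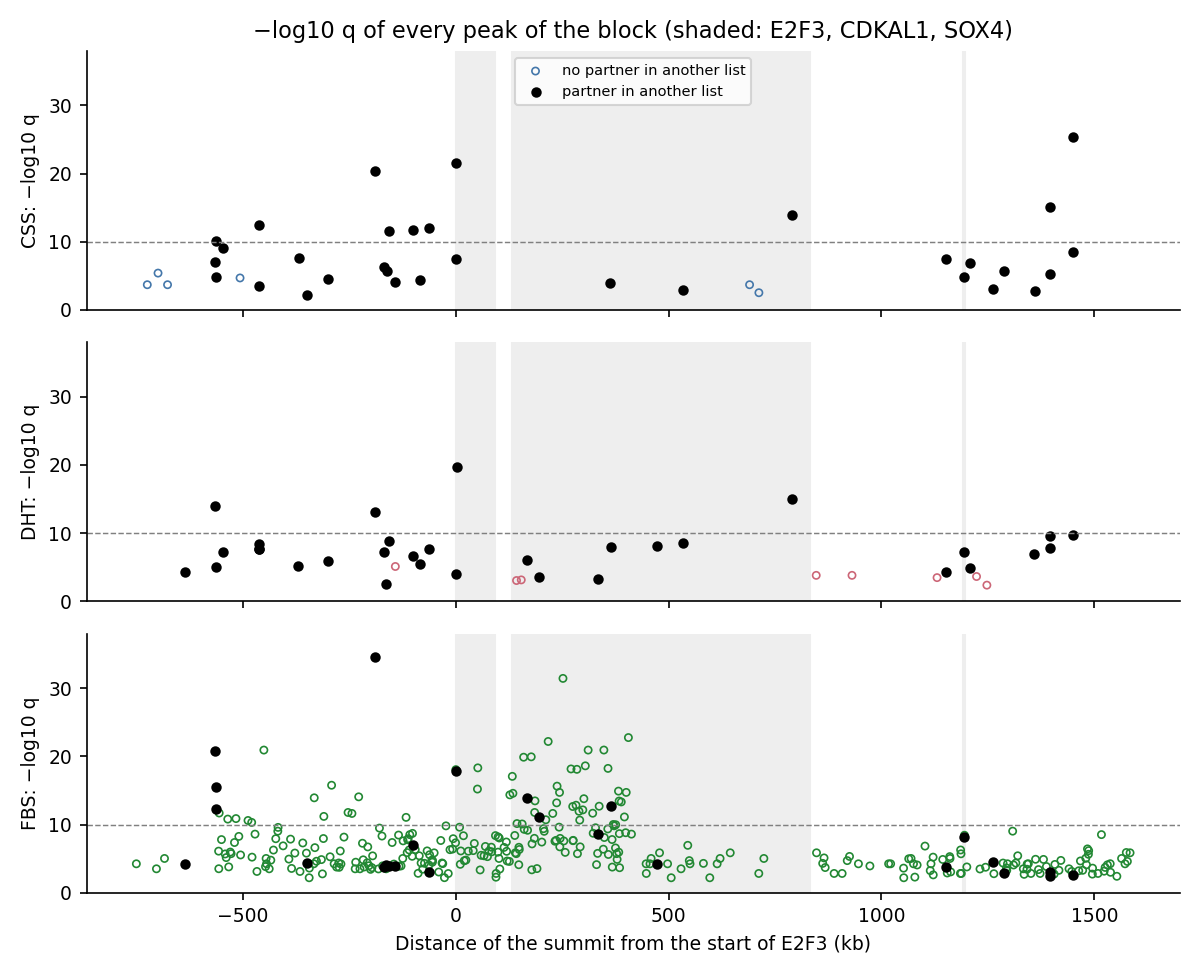
The −log10 q of every member in the CSS (top), DHT (middle) and FBS (bottom) list against the distance of its summit from the start of E2F3. Filled points have a partner in another list, open points have none, grey bands are E2F3, CDKAL1 and SOX4, and the dashed line is a −log10 q of 10. The open FBS points above 10 gather in the first part of CDKAL1 and end 273 kb into it, and none lies above 10 after SOX4.

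Over all FBS members the fold enrichment was like that of the list while the q-values were higher. The median fold enrichment was 4.57 in the block and 4.56 in the list, and a fold enrichment of at least 5 was reached by 113 of 363 (31.1%), against 32.1% of the list. The median −log10 q was 5.43 in the block and 4.26 in the list, and the median width 285 against 258 bp. Of the FBS members, 15.7% lay within 2 bp of the narrowest width in the list, against 24.1% of all FBS peaks. In CSS a fold enrichment of at least 5 was reached by 26 of 38 members against 63.2% of the list, and in DHT by 28 of 40 against 71.5%. A −log10 q of at least 10 was reached by 10 of 38 in CSS against 14.5%, and by 4 of 40 in DHT against 11.8%. The median −log10 q of members and list was 5.74 and 4.96 in CSS, and 6.35 and 5.22 in DHT.

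CSS and DHT shared their peaks in the block about as often as elsewhere. Of 38 CSS members, 26 (68.4%, 51.3 to 82.5%) overlapped a DHT peak, against 56.8% of the list. Of 40 DHT members, 26 (65.0%, 48.3 to 79.4%) overlapped a CSS peak, against 63.9%. An FBS partner was found for 19 of 38 CSS members (50%, 33.4 to 66.6%; list 44.1%) and 19 of 40 DHT members (47.5%, 31.5 to 63.9%; list 48.2%). Each of these intervals includes the value of the whole list.

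In the other direction, few FBS members had a partner. Of 363, 25 (6.89%, 4.51 to 9.999%) overlapped a CSS or DHT peak, against 17.2% of the list. With a −log10 q under 5 the share was 14 of 158 (8.86%, 4.93 to 14.4%), against 11.1% of such FBS peaks in the list. From 5 to under 10 it was 3 of 144 (2.08%, 0.432 to 5.97%), against 20.2%. At 10 or more it was 8 of 61 (13.1%, 5.84 to 24.2%), against 67.1%. In the rest of chromosome 6 the share at 10 or more was 71.2% (190 of 267). The block lay below the list in each class, but under 5 its interval includes the value of the list. Because the block was picked for its many FBS peaks, this is description, and the intervals, which cover counting error only, are no test of it. Of the 61 strong FBS peaks, 53 had no CSS or DHT peak under them.

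**Figure D5:**
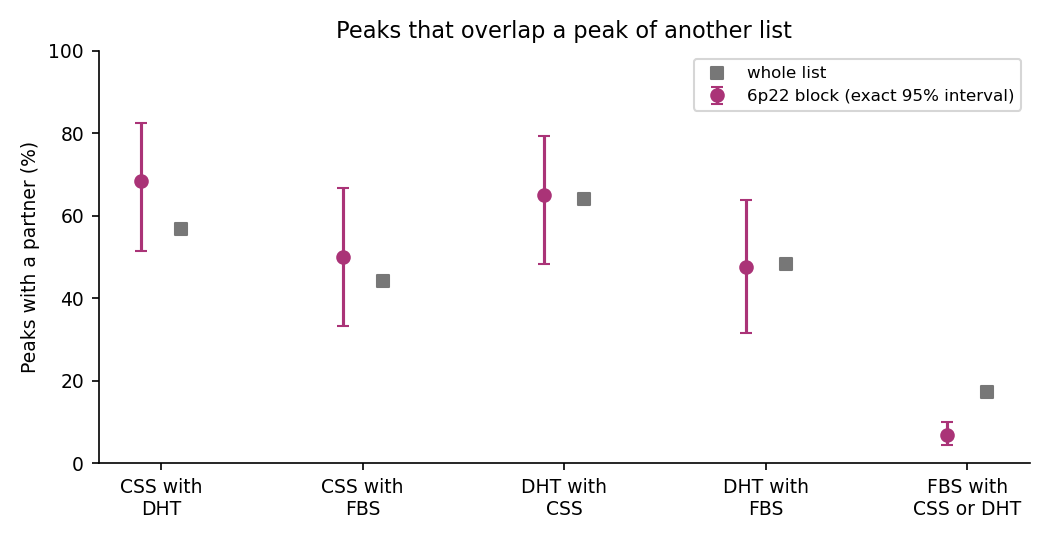
Share of peaks that overlap a peak of another list, for the members of the block (circles, with exact 95% intervals) and for the whole list (squares). The CSS and DHT intervals include the square beside them, and for FBS the block lies at 6.89% and the list at 17.2%.

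The 3 windows of 2.5 Mb with the most FBS peaks that do not overlap the block were set beside it. The window of chromosome 13 (110000001 to 112500000) held 581 peaks in FBS, 88 in CSS and 93 in DHT. That of chromosome 17 (27500001 to 30000000) held 367, 62 and 63, and that of chromosome 9 (112500001 to 115000000) 354, 31 and 36. The ratio of FBS to CSS shares was 1.998 (1.59 to 2.53) in the chromosome 13 window, 1.79 (1.37 to 2.38) in that of chromosome 17 and 3.46 (2.39 to 5.16) in that of chromosome 9. Among FBS peaks whose −log10 q reached 10, a CSS or DHT partner was found for 32 of 107 (29.9%, 21.4 to 39.5%) on chromosome 13, for 22 of 31 (71.0%, 52.0 to 85.8%) on chromosome 17 and for 11 of 18 (61.1%, 35.7 to 82.7%) on chromosome 9. The share in the block, 13.1%, was the lowest of these, and its interval overlaps that of the chromosome 13 window. Over FBS peaks of any strength the shares on chromosomes 13, 17 and 9 were 12.6%, 13.9% and 7.63% (5.09 to 10.9%). The block had 6.89% (4.51 to 9.999%). From 5 to under 10 the shares were 8.27%, 9.49% and 3.92%, and 2.08% in the block. Under 5 they were 9.13%, 8.04% and 5.46%, and 8.86% in the block. These differences were not tested, since the windows were chosen by their FBS peaks.

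After overlapping peaks were merged, the block held 386 regions, of which 338 (87.6%) were called in FBS alone. Another 13 (3.37%) held a peak of each list, 12 of CSS and DHT, 4 of CSS and FBS, 5 of DHT and FBS, 6 of CSS alone and 8 of DHT alone. Over the whole lists, of 151256 regions, 7.67% were called in each list, 5.97% in CSS and DHT, 2.69% in CSS and FBS, 2.61% in DHT and FBS, and a single list gave 7.57% (CSS), 5.10% (DHT) and 68.4% (FBS). In the block these shares were 3.37%, 3.11%, 1.04%, 1.30%, 1.55%, 2.07% and 87.6%. The block was picked for its many FBS peaks, and regions called in FBS alone count in the total. The lower shares of the other classes are tied to that number and are no separate result. Of the 25 regions with a CSS and a DHT peak, 13 had an FBS peak, against 56.2% of 20633 such regions in the whole lists. In these 25 the strongest CSS and DHT summits were a median of 110 bp apart. CSS stood at a higher percentile of its list than DHT in 13 and at a lower one in 12.

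Of the 13 regions called in each list, 7 lay before E2F3, where the strongest member of the FBS list was found. That part of the block also held 55.3% of the CSS, 42.5% of the DHT and 35.8% of the FBS members. The region from 20212202 to 20213246, before E2F3, had a −log10 q of 20.3 in CSS (rank 775), 13.2 in DHT (rank 1458) and 34.6 in FBS (rank 138). It was high in every list. The region from 19837014 to 19839442 was built of 3 CSS, 2 DHT and 3 FBS peaks, with a highest −log10 q of 10.17 in CSS, 14.0 in DHT and 20.7 in FBS (rank 648). Inside CDKAL1 the region from 20765397 to 20765813 stood at percentile 35.1 of the CSS list, 77.7 of the DHT list and 97.6 of the FBS list, with −log10 q of 4.02, 7.92 and 12.8.

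Other shared regions stood high in the CSS list and low in the FBS list. At 21851456 to 21852691, after SOX4, the CSS peak was the strongest CSS member (fold enrichment 11.0, −log10 q 25.3, rank 341). The DHT peak had a −log10 q of 9.77 (rank 4361 of 34120), and the FBS peak one of 2.56 (rank 118893 of 124868). That FBS peak overlapped the DHT peak and a second, weaker CSS peak, not the leading CSS peak. At 21797686 to 21798502, also after SOX4, the percentiles were 94.7 for CSS, 77.7 for DHT and 14.5 for FBS, from values of 15.1, 7.89 and 3.01. At 20339516 to 20339891, before E2F3, they were 90.5, 76.2 and 15.6, from values of 11.98, 7.67 and 3.11. In 7 of the 13 regions the strongest FBS peak was in the lower part of its list, below the middle rank, and in 5 it was in the highest 10%.

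The remaining regions called in each list are given by their values alone. Before E2F3, at 20233005 to 20233889 CSS had a −log10 q of 6.37, DHT 7.28 and FBS 3.71, and at 20239097 to 20239645 it was 5.73, 2.48 and 4.09. At 20244941 to 20245633 it was 11.6, 8.91 and 3.87, and at 20301361 to 20301933 it was 11.7, 6.61 and 6.95. Between CDKAL1 and SOX4, at 21552461 to 21553023, it was 7.48, 4.27 and 3.73. The regions at the starts of E2F3 and SOX4 described above complete the 13.

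FBS had no overlapping peak at some sites that stood high in the CSS and DHT lists. Besides the E2F3 site, the region from 21192220 to 21192502 in the far part of CDKAL1 reached 10.6-fold enrichment in CSS and 11.3 in DHT, the highest of the DHT members, with −log10 q of 13.9 and 14.9. The nearest FBS peak was 56.8 kb away, the largest such distance among the 26 regions with a CSS or DHT peak and no FBS peak. The region from 19939478 to 19940858, before E2F3, was less strong in DHT. Its values were 12.4 in CSS (percentile 91.3) and 8.41 in DHT (percentile 80.8), with an FBS peak 4.30 kb away. The median distance over the 26 regions was 3.25 kb, and 4 had an FBS peak within 500 bp.

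Peaks called in DHT and not in CSS were weak to moderate. The 8 DHT-only regions had −log10 q between 2.38 and 5.12. The 5 regions of DHT and FBS included 4 in CDKAL1, of which 20568079 to 20569126 was the strongest in FBS (6.08 in DHT, 13.8 in FBS) and 20875299 to 20875535 the strongest in DHT (8.10 in DHT, 4.26 in FBS). The 6 CSS-only regions had −log10 q between 2.53 and 5.40, and those of CSS and FBS between 2.25 and 5.75 in CSS. With 1 list per condition, whether a region called in DHT and not in CSS differs between the conditions was not tested.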

How the data were processed

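The data were 3 ZBTB7A ChIP-seq peak lists from VCaP cells, 1 each for CSS, DHT and FBS, made from 5 libraries. MACS2 2.0.10.20131216, SAMtools 0.1.18 and BWA 0.7.2-r351 are named with hg19 per the submitters' processing notes. The control library, the threshold, the filters and how libraries were combined were not given in the sources used here. Lists reached down to a −log10 q of 1.33 (CSS), 1.31 (DHT) and 1.31 (FBS). The fold enrichment of each peak, a ratio over background, the −log10 q and the summit offset in bp were deposited by the authors, as was a score equal to the whole part of 10 times the −log10 q. Fold enrichment and q-values depend on depth, which is unknown, and on the local background, so peaks were ordered within a list only.

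Members were found by summit with Python 3.11.15, numpy 2.4.6, pandas 2.3.3 and scipy 1.17.1, and figures drawn with matplotlib 3.10.9. A partner shared 1 bp or more. Intervals of shares are exact (Clopper-Pearson). Those of ratios of shares are exact conditional binomial intervals. No test between conditions was made. Overlaps were checked on simulated data, and in 6 of 6 list pairs their counts equalled those from bedtools 2.31.1. Gene limits on hg19 were known to the nearest kb. Promoter sequences are from RefSeq on GRCh38. The block, the gene limits and the rules were chosen with earlier results of these data known. Named by rule were the regions called in each list (12 or fewer in full, otherwise the 8 with the highest FBS −log10 q), the 5 peaks with the highest −log10 q per list, the peaks nearest to gene ends and to the limits of the block. Other regions were named after their values were seen. Alternatives changed the thresholds on peaks, the rule for overlap, the limits of the block, the merging distance and the tiling of windows.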

Additional observations from a re-analysis of the deposited data

How the results depend on the processing

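Each alternative changed 1 choice. Of 105 values under alternatives, 57 stayed in the range set around the reported value and 48 moved out of it. That range was its interval or a 1.5-fold range. For the median fold enrichment, −log10 q and width it was 1 standard deviation of the members' values. The ratio of DHT to CSS shares, whose interval includes 1, fell below 1 at the highest threshold. No paired analysis was possible because each condition has 1 list, although libraries of CSS and DHT carry the same numbers. Leaving out a library was not possible either. Thresholds keep fewer peaks and stricter rules fewer overlaps, and other causes were not tested. Depth is unknown and the FBS list is the longest, and the part of either in these values was not tested.

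At a −log10 q of at least 5, 10 and a fold enrichment of at least 5, and with equal numbers of top peaks, the block held 205, 61, 113 and 175 FBS peaks. CSS had 22 and DHT 26 at the first threshold, and 10 and 4 at the second. The ratio of FBS to CSS shares was 5.45 at a −log10 q of at least 10, 4.86 with equal numbers and 4.60 from 20 to 21 Mb, and stayed above 1 in all 8 alternatives. The block was picked for its many FBS peaks and the lists are the same, so this is no independent support for the ratio. The ratio of DHT to CSS shares was 0.543 (0.124 to 1.88) when a −log10 q of 10 was required, from 4 and 10 peaks.

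With an overlap of 50% of both peaks, the shares with a partner were 50% (CSS with DHT), 47.5% (DHT with CSS), 23.7% (CSS with FBS), 20% (DHT with FBS) and 3.58% (FBS). With summits within 100 bp they were 36.8%, 35.0%, 13.2%, 12.5% and 2.48%. When both lists were held to a −log10 q of at least 10, CSS with DHT was 30% (3 of 10) and CSS with FBS 20% (2 of 10), while DHT with CSS was 75% (3 of 4) and DHT with FBS 50% (2 of 4). At 5 or more, CSS, DHT and FBS shares across the FBS comparison were 22.7%, 26.9% and 4.39%, and at a fold enrichment of at least 5 they were 15.4%, 14.3% and 4.42%. With equal numbers, CSS with FBS was 22.2% and DHT with FBS 25%. Shares of the whole lists under these altered rules were not computed, so whether the lower shares are particular to the block was not tested.

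CDKAL1 held 28.7% of the FBS members, but 41.0% and 62.3% at a −log10 q of at least 5 and 10, 53.1% at a fold enrichment of at least 5 and 45.7% with equal numbers. The stretch after SOX4 held 15.7%, and 4.88%, 0%, 6.19% and 3.43% in the same order. Before E2F3 the share was 27.9% at a −log10 q of at least 10, and in E2F3 3.54% at a fold enrichment of at least 5. As many FBS peaks as in the block were found in 1 window at a −log10 q of at least 5, in 10 at a fold enrichment of at least 5 and in 1 with shifted windows. For CSS the number was 89 at a −log10 q of at least 10, and for DHT 122 and 451 at 5 and 10.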

Other observations

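Some peaks share exactly the same deposited values. In FBS the commonest pair of values, a fold enrichment of 4.80 with a −log10 q of 4.26, was found at 17 of the 363 members (4.68%) and at 11304 peaks of the list (9.05%). In CSS the commonest pair among the members, 4.78 with 3.70, was found at 3 of 38 (7.89%) and at 2880 peaks of the list (7.62%).

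Closely spaced summits were more frequent among the FBS members than in the list: 53 neighbouring pairs of summits were under 1 kb apart, 14.6% of pairs, against 9.36% over chromosomes 1 to 22 and X. The block was picked for its many FBS peaks, so close neighbours are tied to their number and are no separate result. In CSS and DHT the shares in the block were 8.11% and 7.69%, against 9.25% and 8.89%, from 3 pairs each.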
